A study of Mus musculus with 17 samples.

Results

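The 9 genes described here belong to the stress axis and to the response of cells to glucocorticoids: Nr3c1, Nr3c2, Fkbp5, Crhr1, Crhr2, Crhbp, Hsd11b1, Sgk1 and Ucn3. They were taken as a named set out of 21887 protein-coding genes. Every H3K27ac peak was gathered that overlapped the RefSeq span of a gene or the 10 kb on either side of it, in build mm10. That gave 152 peaks of the 183678 in the list. The peaks came from 3 bulk CUT&Tag samples of mouse hypothalamus titled as biological replicates, in which an antibody against the acetylated histone H3 guided the transposase Tn5 to chromatin of nuclei from dissected tissue. The 3 carry the same labels, which name no strain, sex, age, genotype or treatment. The series also holds 7 Paired-Tag sub-libraries of DNA and 7 of RNA, from a joint assay of histone marks and RNA in single nuclei, which were not analysed here. One peak list served the 3 samples together, so no value per animal, no spread and no depth could be given, and no test was made.

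In the stress axis, neurons of the paraventricular hypothalamus release corticotropin-releasing hormone, the pituitary answers with corticotropin, and the adrenal cortex with glucocorticoids. Glucocorticoids act back on the brain through the glucocorticoid receptor and the mineralocorticoid receptor, nuclear receptors that bind DNA when hormone is bound, held ready by a chaperone complex. H3K27ac, an acetylated lysine of histone H3, is found at promoters and enhancers in use, and glucocorticoid response elements at target genes are often found in such chromatin.

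Each peak carries a fold enrichment, a linear ratio over the peak caller's background, and a −log10 q, both deposited by the authors. They are values of a peak and rank peaks within this list only. Over the 152 peaks the fold ran from 1.78 to 11.3 with a median of 3.21, beside a median of 3.18 for the whole list. The median −log10 q was 12.3, beside 13.1 for the whole list, and the median width was 515.5 bp, beside 557 bp. Peaks at or above the list's upper quartile of fold, 4.24, made up 27.6% of the members' peaks (42 of 152), beside 25.0% of the list. In these measures the peaks of the 9 genes lay close to those of the list as a whole. As a check of the tissue label, an end of the gene had a peak within 1 kb in 12 of 12 hypothalamic marker genes, 5 of 8 of cortex and hippocampus, 2 of 10 of anterior pituitary and 0 of 4 of blood. Peaks also stood at 4 of 4 neuronal, 4 of 4 oligodendrocyte, 3 of 4 astrocyte, 3 of 4 microglial and 3 of 4 endothelial markers, beside 69.2% of all protein-coding genes, a share that several of these short lists lie near. Among the 12 hypothalamic genes, Agrp shared its peak with Atp6v0d1 and Gm38250, and the end fold of Six3 was 1.64. Pomc had no peak within 1 kb of its listed start. The cortical marker Fezf2 had no end peak but had one with a fold of 4.51 within 1 kb of a listed start. The tissue was profiled in bulk, so a mark in fewer cells and a weaker mark per cell cannot be told apart.

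The mark stood at 8 of the 9 genes, and Ucn3 was the one without any peak. Counting a peak within 1 kb of either end of the span, 8 of 9 members had one, beside 69.2% of all protein-coding genes. A peak at both ends was listed for 3 of 9 (Nr3c1, Crhr2 and Sgk1), beside 23.2%. Any peak in the span and its 10 kb flanks was listed for 8 of 9, beside 79.2%. The start table used here gives transcript starts for 8 of the members, all but Nr3c1. Of these, 7 of 8 had a peak within 1 kb of a start, beside 68.3% of 17492 genes, and for 6 of 8 the start base itself lay under a peak, beside 64.3%. With 9 genes and no test, nothing particular to the set is read from these counts.

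**Figure D1:**
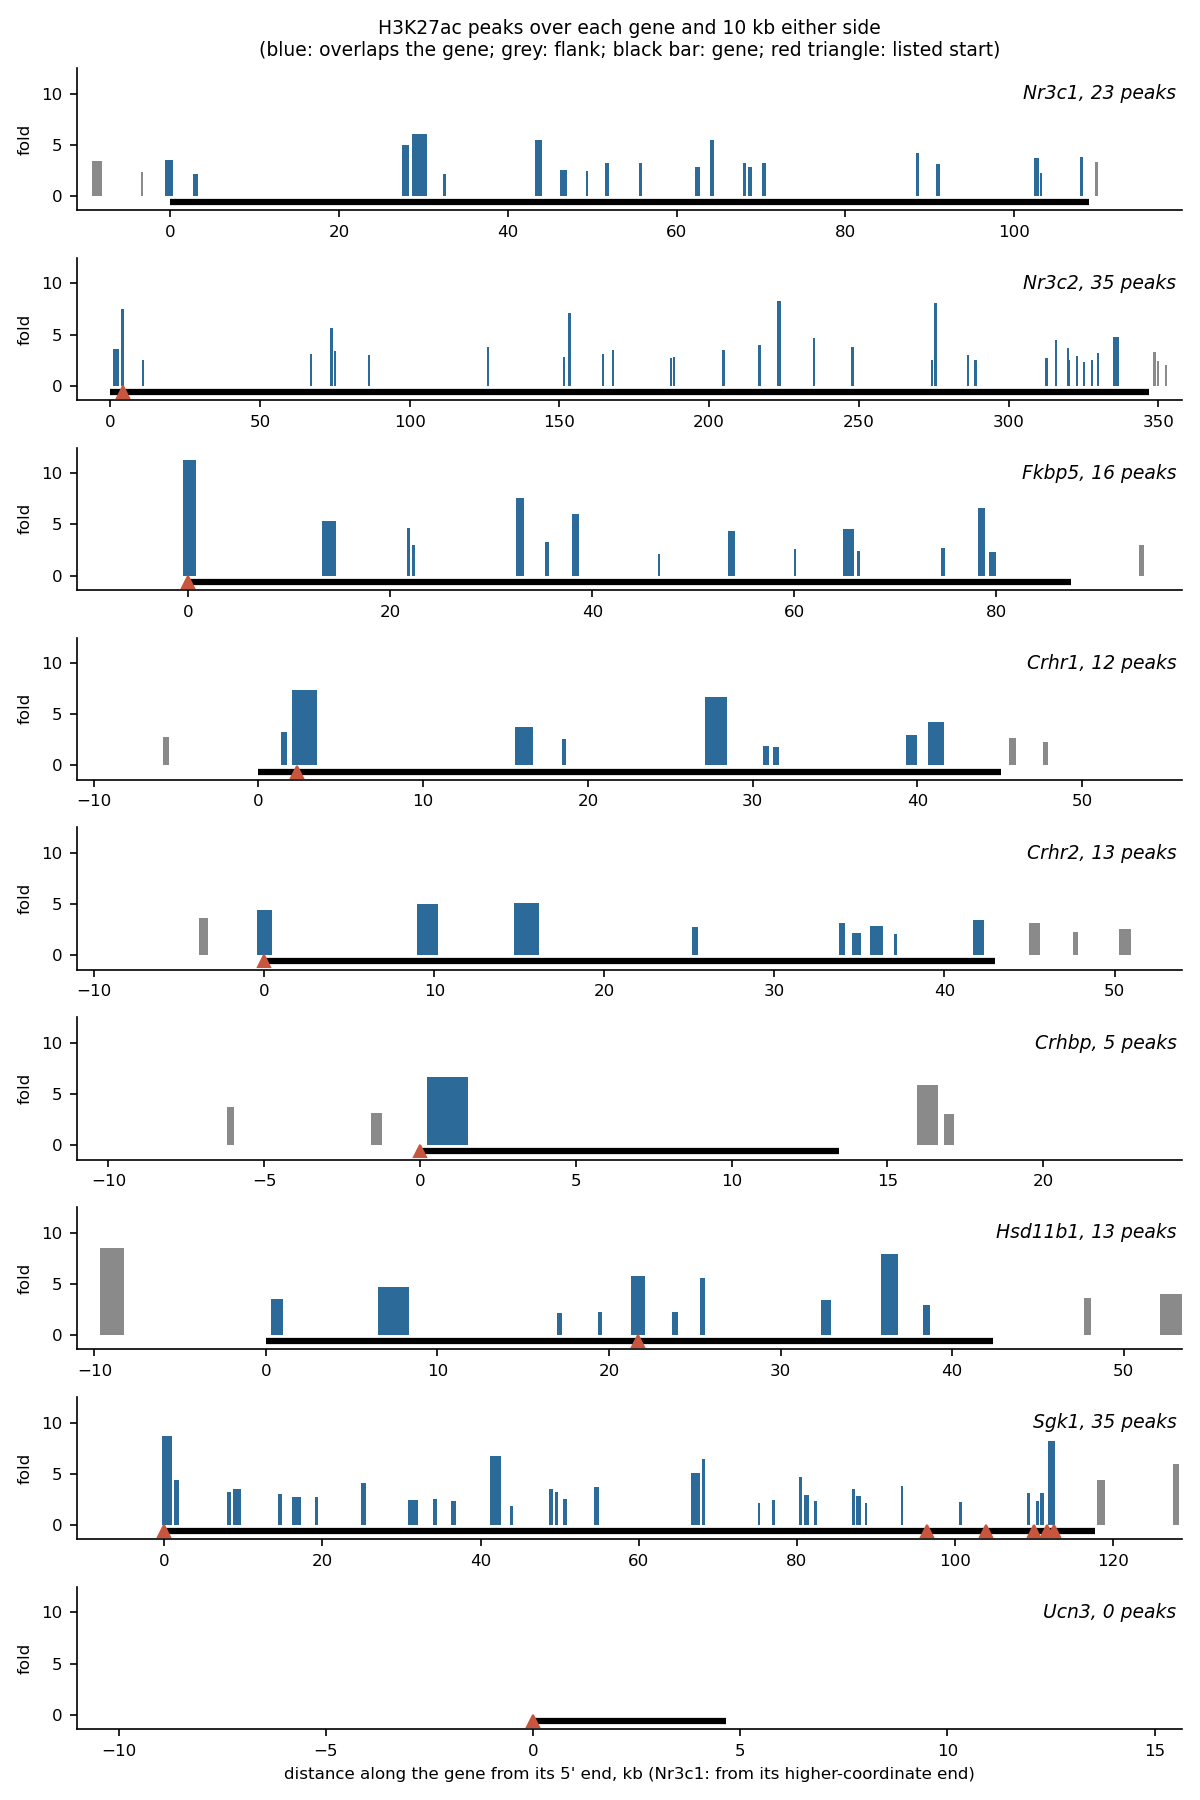
Each panel shows 1 gene with distance along it in kb on the x axis and the fold of each peak on the y axis, with bars as wide as the peaks where the scale allows. Blue bars overlap the gene, grey bars lie in its flanks, black lines are gene spans and red triangles are listed starts. With flanks, Nr3c2 and Sgk1 had 35 peaks each, and Ucn3 had none.

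Most of the peaks lay inside the genes and away from their ends. Of the 152 peaks, 129 overlapped a span and 23 lay in the flanks, and 12 overlapped another annotated gene. The summits of 19 peaks lay within 1 kb of an end or a listed start, with a median fold of 3.76 and a median width of 899 bp. The summits of 126 peaks (82.9%) lay more than 2500 bp from any end or start of the gene, with a median fold of 3.11 and a median width of 494.5 bp. Of the 42 peaks at or above the list's upper quartile of fold, 32 were among these distant ones, a smaller share than among all 152. Nr3c1 has no listed start, so its peaks were measured from its ends only. It gave 20 of the 126 distant peaks and 4 of the 32, and some of these may lie at a start.

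Nr3c1 encodes the glucocorticoid receptor, which is found in nearly all cells. The gene (chromosome 18, 39410545 to 39519421, 109 kb) had 23 peaks in its span and flanks, 20 of them overlapping the span, and they covered 10.2% of the span and flanks. Its ends had lower folds than its strongest interior peaks. The peak across the end of higher coordinate (39519109 to 39520007) had a fold of 3.47 and a −log10 q of 11.4. The highest within 1 kb of the other end had a fold of 3.76 (39411274 to 39411574). The strongest peak was interior: 39488989 to 39490716, 1728 bp wide and the widest of the gene, had a fold of 6.07 and a −log10 q of 252, with its summit 29.5 kb inside the higher end. It had a neighbour at 39491085 to 39491936 with a fold of 5.02 and a −log10 q of 167.

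The next highest folds of Nr3c1, 5.50 and 5.49, belonged to peaks of 513 and 812 bp with −log10 q values of 38.0 and 30.2, at 39454996 to 39455508 and 39475335 to 39476146. Between the 5.02 peak and the next peak toward the higher end lay 24.2 kb without any, the longest such stretch of the gene. The highest fold of Nr3c1 was above that of 36.3% of all protein-coding genes and above that of 10.9% of those of like length (the same decile of gene length). Its highest −log10 q was above that of 66.7% of all. By fold, then, the receptor gene ranked low for its length, and by −log10 q above the middle. Its strand and starts were not given in the sources used here, so no promoter is assigned, and an interior peak may lie at a start.

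Nr3c2 encodes the mineralocorticoid receptor, which binds corticosterone with high affinity and in brain is best known from hippocampus. It was the longest of the 9 genes (chromosome 8, 76898083 to 77245012, 347 kb) and had 35 peaks in its span and flanks, 32 of them overlapping the span. They covered 6.62% of the span and flanks, the lowest share of the 8 genes with peaks. The listed start at 76902330 lay under a peak at 76901526 to 76902689, 1164 bp wide, with a fold of 7.48. Its −log10 q of 424 was the highest of all 152 peaks. Among the 16824 listed starts under a peak, 88.9% had a peak of lower −log10 q and 42.7% one of lower fold. Just before it lay the widest of the 152 peaks, 76898903 to 76901088 (2186 bp, fold 3.57), which also overlapped the long noncoding RNA gene Gm10649.

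The 2 highest folds of Nr3c2 were not at its start. A peak at 77120684 to 77121962 had a fold of 8.26 and a −log10 q of 68.5, with its summit 218777 bases downstream of the start. Another at 77173151 to 77174303 had a fold of 8.08 and a −log10 q of 62.1, and 1 at 77050956 to 77052129 had 7.15 and 60.3. These exceeded in fold 94.3%, 94.0% and 92.2% of all listed peaks. A stretch of 55.4 kb without a peak (76909396 to 76964767) separated the start region from the interior peaks, the longest of the 9 genes. The 9 last peaks inside the gene, from 77210262 on, included a 2121 bp peak at 77232922 to 77235042 with a fold of 4.81.

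The start window of Nr3c2 is shown because its whole length lay under the peak of highest −log10 q. It runs from 250 bases before to 50 bases after the start, on the plus strand, chr8:76902080-76902379, in RefSeq GRCm38.p6. Capitals mark GGGCGG or its reverse complement CCGCCC, the core of the motif of the ubiquitous activator Sp1.
Nr3c2: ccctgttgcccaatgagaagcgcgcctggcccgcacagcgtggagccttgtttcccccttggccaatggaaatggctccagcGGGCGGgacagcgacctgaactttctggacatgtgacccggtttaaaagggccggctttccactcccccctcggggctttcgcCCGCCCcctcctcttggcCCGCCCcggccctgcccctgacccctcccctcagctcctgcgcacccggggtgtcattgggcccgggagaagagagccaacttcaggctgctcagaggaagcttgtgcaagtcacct

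The motif occurred 3 times in that window, beginning at -168, -85 and -67 from the start. On either strand it was in 35.7% of the 32851 start windows of the table and in 5 of the 13 windows of the 9 genes. The window held 17 CpG dinucleotides, 0.537 of the number its base composition would give, against a median of 7 and 0.384 over all start windows. A motif match in any of these windows is a match of letters and says nothing of binding.

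Fkbp5 encodes FKBP51, a co-chaperone of the receptors that lowers their affinity for hormone, and it is itself induced by glucocorticoids, largely through elements in its introns. Its start peak had the highest fold of all 152 peaks. The peak (chromosome 17, 28485345 to 28486646, 1302 bp) lay over the listed start at 28486149 with a fold of 11.3 and a −log10 q of 176, with its summit close to the start base. Of all listed peaks 97.3% had a lower fold, and of the peaks over listed starts 71.8%. By −log10 q it stood in the middle of them, above 49.3%.

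Inside Fkbp5 (28398753 to 28486149, 87.4 kb) there were further strong peaks. They stood at 28452875 to 28453722 (fold 7.58), 28407262 to 28407978 (6.57) and 28447479 to 28448112 (6.02), with summits 33.0, 78.6 and 38.2 kb downstream of the start. The first and the last of these also overlapped the long noncoding RNA gene Gm22146. The widest peak of the gene, 28471565 to 28472896 (1332 bp), had a fold of 5.35 and lay 13.8 kb from the start. In all, 8 of the 16 peaks in the span and flanks of Fkbp5 reached the list's upper quartile of fold, against 42 of 152 for the 9 genes together. Its median fold, 3.85, was the highest of the 8 genes with peaks.

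The start window of Fkbp5 is printed as that of the highest fold, from the minus strand, chr17:28486100-28486399, RefSeq GRCm38.p6. Capitals mark GGGCGG and CACGTG, the letters bound by bHLH factors such as USF and the clock proteins.
Fkbp5: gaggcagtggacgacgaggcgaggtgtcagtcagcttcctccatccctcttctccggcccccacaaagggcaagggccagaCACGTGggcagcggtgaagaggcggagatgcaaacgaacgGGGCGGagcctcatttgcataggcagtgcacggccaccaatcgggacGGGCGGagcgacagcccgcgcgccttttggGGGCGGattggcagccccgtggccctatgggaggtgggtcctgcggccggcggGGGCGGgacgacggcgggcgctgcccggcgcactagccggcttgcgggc

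GGGCGG occurred 4 times in it and CACGTG a single time, beginning at -169. CACGTG was in 7.15% of all start windows and in 2 of the 13 of these genes. The window held 32 CpG dinucleotides, the most of the 13, at 0.872 of the number given by composition. It had no match to the full glucocorticoid response element or to its core AGAACA.

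**Figure D2:**
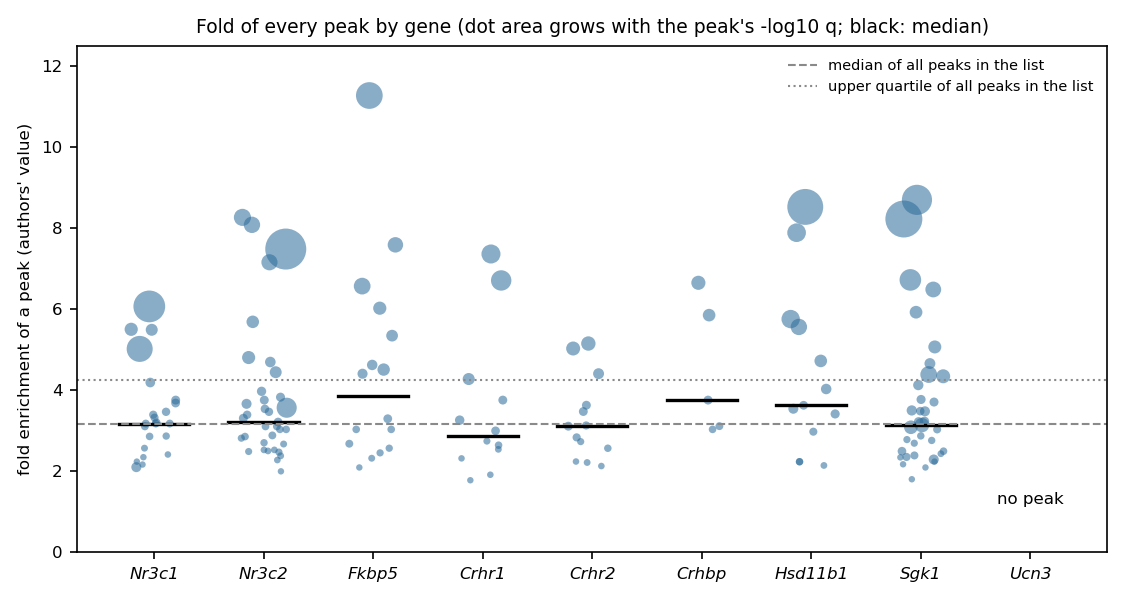
Fold enrichment of each of the 152 peaks (y axis) by gene (x axis), 1 dot per peak, with dot area growing with −log10 q and black lines at the median of a gene. The dashed and dotted lines are the median (3.18) and upper quartile (4.24) of the whole list. The highest dot is the start peak of Fkbp5 and the largest the start peak of Nr3c2.

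Crhr1 and Crhr2 encode the G protein-coupled receptors of the corticotropin-releasing hormone family: CRHR1 binds corticotropin-releasing hormone and urocortin, and CRHR2 binds the urocortins. The start of Crhr1 carried a stronger peak than that of Crhr2. The Crhr1 start at 104132781 on chromosome 11 lay under a peak of 1504 bp (104132508 to 104134011) with a fold of 7.36 and a −log10 q of 86.1. The Crhr2 start at 55133016 on chromosome 6 lay under a peak of 929 bp (55132548 to 55133476) with a fold of 4.41 and a −log10 q of 24.0. Among peaks over listed starts, 41.8% had a lower fold than that of Crhr1 and 17.8% a lower fold than that of Crhr2. Both thus stood below the middle. With no value per sample, the order of the 2 receptors could not be set against any spread.

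Crhr1 (104130463 to 104175523, 45.1 kb) had 12 peaks in its span and flanks, 9 of them overlapping the span. The highest −log10 q of the gene, 99.95, belonged to a peak of 1382 bp at 104157539 to 104158920 with a fold of 6.71, 25.3 kb from the start. That peak lay at an end of the long noncoding RNA gene Gm35469, which overlaps Crhr1, so it cannot be given to either gene alone. Another peak above the upper quartile, 104171118 to 104172051, had a fold of 4.28. Crhr2 (55090048 to 55133016, 43.0 kb) had 13, 9 of them overlapping the span. Its highest folds were inside, at 55116850 to 55118325 (1476 bp, fold 5.15, −log10 q 46.4) and 55122786 to 55124020 (1235 bp, fold 5.03, −log10 q 43.5). Their summits lay 15.1 and 9.84 kb downstream of the start. In Crhr2 the fold of the start peak was below both. Peaks covered 12.3% of the window of Crhr1 and 13.7% of that of Crhr2, beside a median of 7.50% over all protein-coding genes. The longest stretch without a peak was 12039 bp in the window of Crhr1 and 8.99 kb in that of Crhr2.

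The start windows of the 2 receptors are set side by side as they differ in composition, chr11:104132531-104132830 on the plus strand for Crhr1 and chr6:55132967-55133266 on the minus strand for Crhr2, RefSeq GRCm38.p6. Capitals mark GGGCGG in Crhr1 and TATAAA, the letters of the TATA box, in Crhr2.
Crhr1: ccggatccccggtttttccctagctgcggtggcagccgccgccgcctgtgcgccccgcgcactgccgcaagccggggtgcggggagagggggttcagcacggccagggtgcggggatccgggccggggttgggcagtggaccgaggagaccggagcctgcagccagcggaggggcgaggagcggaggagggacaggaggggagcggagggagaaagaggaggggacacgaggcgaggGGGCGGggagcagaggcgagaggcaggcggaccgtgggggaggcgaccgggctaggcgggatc
Crhr2: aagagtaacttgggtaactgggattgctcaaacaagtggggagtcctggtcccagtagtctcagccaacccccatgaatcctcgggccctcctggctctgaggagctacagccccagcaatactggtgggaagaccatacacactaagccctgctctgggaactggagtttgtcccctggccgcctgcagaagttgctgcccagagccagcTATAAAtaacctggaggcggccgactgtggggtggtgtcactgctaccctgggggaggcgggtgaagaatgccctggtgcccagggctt

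The Crhr1 window was 75% G and C with 31 CpG dinucleotides, 0.827 of the number given by composition. The Crhr2 window was 59% G and C with 5, or 0.192. TATAAA began at -39 from the Crhr2 start and was in 13.6% of all start windows. Windows that overlapped a peak had a median of 19 CpG dinucleotides, against 3 in windows that did not. The start of Crhr2 was therefore under a peak while poor in CpG. The same held for the Hsd11b1 start, with 6 CpG dinucleotides (0.268), and the first Sgk1 start, with 3 (0.206).

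Crhbp encodes the secreted protein that binds corticotropin-releasing hormone and urocortin and keeps them from the receptors. Its start base was not under a peak, although a peak began close by. The start at 95444831 on chromosome 13 lay 229 bp outside the edge of a peak of 1318 bp (95443285 to 95444602) with a fold of 6.65 and a −log10 q of 44.6. That peak lay inside the gene (95431376 to 95444831, 13.5 kb) and was the only one overlapping it. The other 4 peaks lay in the flanks, and the strongest of them (95428211 to 95428895) had a fold of 5.85. The next (95450789 to 95451027) had a fold of 3.76. The −log10 q of the Crhbp peak was above the highest of 30.9% of all protein-coding genes, its fold above that of 40.2%.

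Ucn3 encodes urocortin 3, a peptide ligand of CRHR2 made by restricted groups of hypothalamic neurons, among them cells of the perifornical area. No peak was listed in its span (chromosome 13, 3940688 to 3945349, 4.66 kb) or in the 10 kb on either side. The nearest peak, 3917504 to 3918308 with a fold of 9.90, ended 22380 bp from the gene. Widening the flanks to 50 kb brought in 3 peaks, the strongest (fold 11.2) nearest to the gene Net1. A missing peak in a bulk list, at unknown depth, does not show that no cell carried the mark there.

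The start windows of Crhbp and Ucn3, both on chromosome 13 and both without a peak over the start, are given for comparison, from the minus strand, chr13:95444782-95445081 and chr13:3945300-3945599, RefSeq GRCm38.p6. Capitals mark TATAAA and CGTCA, the reverse complement of the core of the cAMP response element, TGACG. In Crhbp the letters TATAAA begin 30 bases downstream of the listed start, and CGTCA begins at -64. The Ucn3 window had no match to any of the motifs searched and is printed in lower case throughout.
Crhbp: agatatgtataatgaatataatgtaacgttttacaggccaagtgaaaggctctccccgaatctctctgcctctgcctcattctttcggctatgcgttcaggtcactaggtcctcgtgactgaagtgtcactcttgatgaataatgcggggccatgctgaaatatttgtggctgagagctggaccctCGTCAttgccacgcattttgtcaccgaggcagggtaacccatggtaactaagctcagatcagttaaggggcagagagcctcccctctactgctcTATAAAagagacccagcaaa
Ucn3: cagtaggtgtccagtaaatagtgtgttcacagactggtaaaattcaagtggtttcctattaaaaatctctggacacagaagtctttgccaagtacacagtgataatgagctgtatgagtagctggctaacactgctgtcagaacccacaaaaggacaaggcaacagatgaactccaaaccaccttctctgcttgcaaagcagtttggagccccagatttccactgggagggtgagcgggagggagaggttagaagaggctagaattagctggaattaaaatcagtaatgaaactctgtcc

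TGACG was in 20.8% of all start windows and in 2 of the 13 windows of these genes. The whole cAMP response element TGACGTCA was in 1.79% and in 0 of the 13. The Crhbp window held 9 CpG dinucleotides and the Ucn3 window 1, with 0.521 and 0.0678 of the number given by composition. Of all start windows, 8.73% had a lower ratio than Ucn3.

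Hsd11b1 encodes the enzyme that turns inactive 11-dehydrocorticosterone back into corticosterone inside cells. The gene (chromosome 1, 193221640 to 193264045, 42.4 kb) had 13 peaks in its span and flanks, covering 13.7% of them, and 10 of the peaks overlapped the span. The highest fold there, 8.52 with a −log10 q of 323, stood in the flank at 193272295 to 193273748 over the start of the neighbouring gene G0s2, and so is not a value of Hsd11b1. Within the span the highest fold was 7.88, at 193227195 to 193228162 (968 bp, −log10 q 82.6), 14.5 kb downstream of the listed start. The start at 193242360 lay under a peak of 816 bp (193241934 to 193242749) with a fold of 5.75 and a −log10 q of 79.9. Of peaks over listed starts, 28.8% had a lower fold. The peak at 193238442 to 193238756 was nearly as strong, with a fold of 5.56. The widest of the gene, 193255706 to 193257491 (1786 bp, fold 4.72), lay upstream of that start, within the annotated span. The highest fold in the gene was thus away from its listed start.

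Sgk1 encodes a serine and threonine kinase that both receptors induce and that acts on ion channels and transporters. The gene (chromosome 10, 21882184 to 21999903, 118 kb) had 35 peaks in its span and flanks, 33 of them overlapping the span, and they covered 15.2%, a share above that of 79.5% of all protein-coding genes. The table lists 6 starts for it, a number reached by 53 of 27025 genes. Of the 6, 2 lay under a peak. The first, at 21882184, lay under a peak of 1309 bp (21881842 to 21883150) with a fold of 8.69 and a −log10 q of 226, which the long noncoding RNA gene Gm46215 shares. The last, at 21994666, lay under a peak of 964 bp (21993939 to 21994902) with a fold of 8.22 and a −log10 q of 344.

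Between these ends the listed starts of Sgk1 were less well marked. The starts at 21978672 and 21986104 had no peak within 1 kb, and their nearest peaks were 3049 and 3056 bp away. The start at 21992223 was 276 bp from a peak with a fold of 2.29 and had 3 peaks within 1 kb, the highest with a fold of 3.14. The start at 21993890 was 49 bp from the edge of the 8.22 peak. Away from the starts, the strongest peaks were at 21923412 to 21924750 (1339 bp and the widest, fold 6.72, −log10 q 113) and 21950145 to 21950548 (fold 6.48), 41.6 and 68.1 kb downstream of the first start. A peak in the flank at 22009758 to 22010586 had a fold of 5.92.

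A glucocorticoid response element was found in 1 of the 13 start windows of the 9 genes, that of the Sgk1 start at 21993890. The element searched was AGAACA, 3 free bases and TGTNCT, on either strand, and it was in 13 of 32851 start windows (0.0396%). It lies at 21993701 to 21993715 on chromosome 10, 189 bases before that start and 965 bases before the last one. The element sits in a stretch of 529 bp without a peak, 292 bp from a peak with a fold of 3.14 and 224 bp from the peak with a fold of 8.22. Of the 13 windows with the element, 2 (15.4%) overlapped a peak, that of Sgk1 by its last base, against 53.6% of all start windows. Only start windows were searched, not whole genes.

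Both windows of Sgk1 are shown, the first with the element and the second under the peak of 8.22, on the plus strand at chr10:21993640-21993939 and chr10:21994416-21994715, RefSeq GRCm38.p6. Capitals mark the response element in the first and, in the second, GGGCGG on either strand and the letters TATAAA.
Sgk1 start at 21993890: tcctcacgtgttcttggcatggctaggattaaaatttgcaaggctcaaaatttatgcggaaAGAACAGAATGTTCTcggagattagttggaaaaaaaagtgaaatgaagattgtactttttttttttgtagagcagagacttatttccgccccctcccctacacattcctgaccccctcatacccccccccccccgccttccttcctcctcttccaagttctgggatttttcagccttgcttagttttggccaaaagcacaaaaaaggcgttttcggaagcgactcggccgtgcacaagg
Sgk1 start at 21994666: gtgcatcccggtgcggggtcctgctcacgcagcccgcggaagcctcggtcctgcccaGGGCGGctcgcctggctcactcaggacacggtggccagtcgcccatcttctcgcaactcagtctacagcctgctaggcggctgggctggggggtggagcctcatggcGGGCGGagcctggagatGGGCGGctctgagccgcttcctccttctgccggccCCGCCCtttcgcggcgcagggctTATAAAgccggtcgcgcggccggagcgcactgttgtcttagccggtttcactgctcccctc

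The second window held 4 matches to GGGCGG on either strand and TATAAA at -11, with 28 CpG dinucleotides and 69.7% G and C. The first held 10 CpG dinucleotides and 46.3% G and C. The core AGAACA, with which the full element begins, was in 19.0% of all start windows and in 3 of the 13, all of Sgk1. Matches to TGANTCA (AP-1, in 7.81% of windows), to AAAGGTCA (Nr4a receptors, 1.51%) and to the NFI palindrome (0.0365%) were found in 0 of the 13. CAGCTG (16.3%) was in 1 of them, at the first start of Sgk1.

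**Figure D3:**
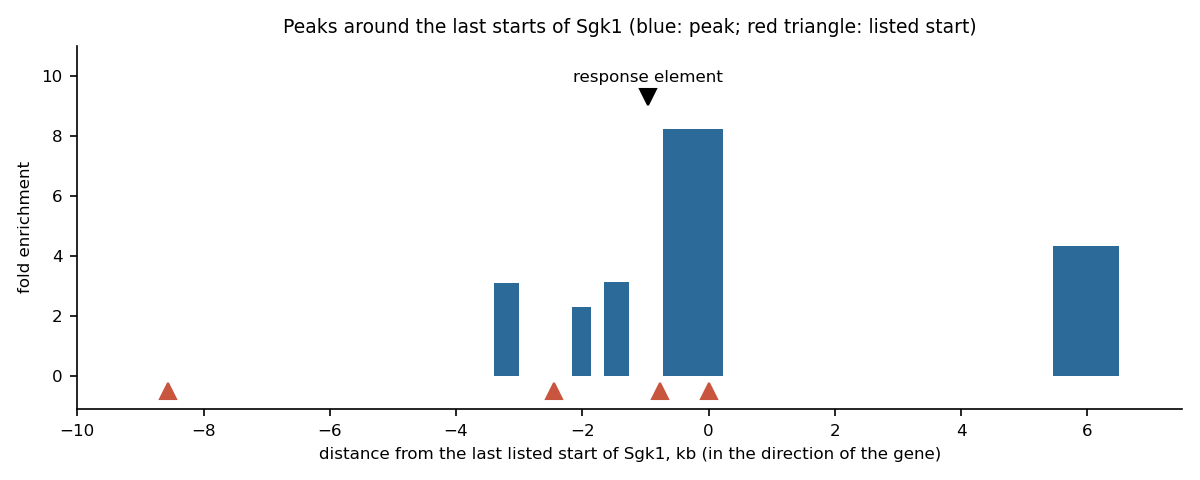
Peaks around the last listed starts of Sgk1, with distance from the last start in kb on the x axis and fold on the y axis. Blue bars are peaks, red triangles listed starts and the black triangle the response element, which stands in a stretch without a peak beside the bar of fold 8.22.

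Set beside all 21887 protein-coding genes, the 9 had more peaks and no higher folds. Their median was 13 peaks per window, against 4 for all, and 10.2% of the window covered, against 7.50%. The median of the highest fold was 7.36, against 8.01, and that of the highest −log10 q was 176, against 162. For Hsd11b1 the −log10 q counted was the 323 of the flank peak over G0s2, beside 82.6 inside its span. With 82.6 in its place the median of the 9 would lie below 162, a value that also counts peaks of neighbouring genes. The 9 genes were longer, with a median span of 45.1 kb against 17.2 kb. Ranked only within the same decile of gene length, the number of peaks of Nr3c1 was above 43.8% of genes and that of Nr3c2 and Sgk1 above 60.8%, where against all genes they had been above 92.6% and 95.9%. Crhr1, Crhr2 and Hsd11b1 stayed above 74.1%, 78.4% and 78.4%. In the highest fold, Fkbp5 was above 64.2% of genes of like length and the other 7 genes with peaks below the middle, from 10.9% for Nr3c1 to 40.7% for Sgk1. Hsd11b1 entered that ranking with the fold of 8.52 of the flank peak over G0s2, beside 7.88 inside its span. For the 7 genes with a peak within 1 kb of a start the median fold there was 7.36, against 9.05 for all such genes.

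**Figure D4:**
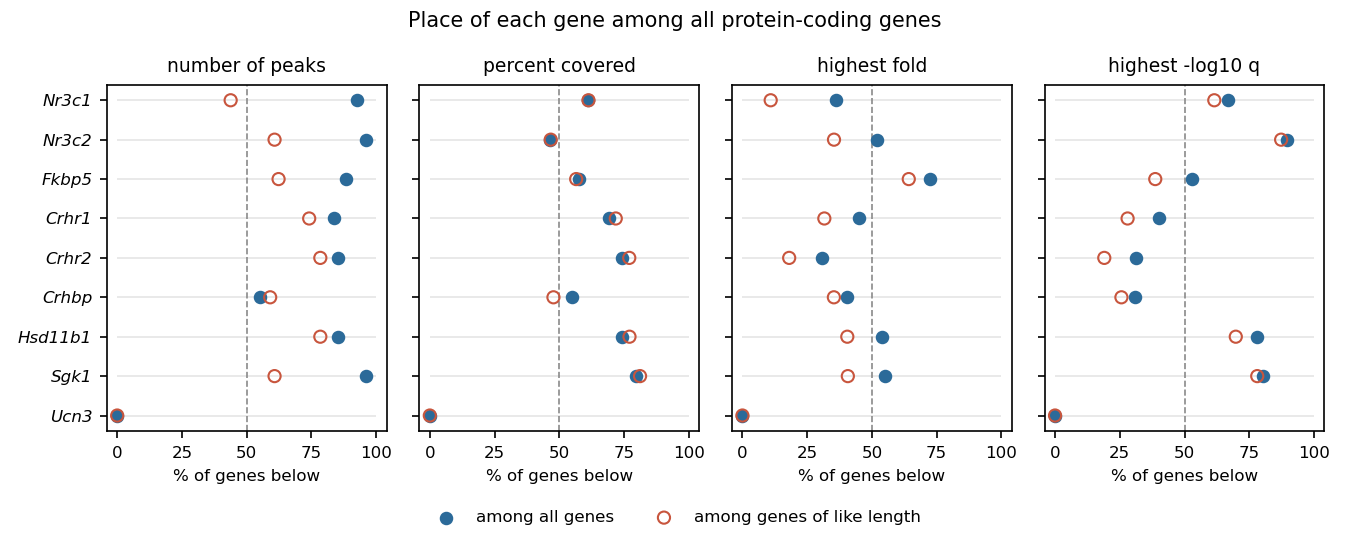
Percent of protein-coding genes (x axis) with a lower value than each of the 9 genes (y axis) in 4 measures, among all genes (filled) and among genes in the same decile of length (open), with a dashed line at 50%. The number of peaks moves left for the long genes when length is matched, and in the highest fold only Fkbp5 stays right of the middle. The highest fold and −log10 q of Hsd11b1 are those of the flank peak over G0s2.

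Other genes of the pathway were described from 7 lists, with 62 genes outside the 9, some of them on more than 1 list. A peak within 1 kb of an end was listed for 54 of the 62 (87.1%, beside 69.2% of all protein-coding genes), with a median end fold of 6.95, 4.08 for the 8 members that had one and 8.60 for all genes with such a peak. The starts of Nr3c2, Crhr1 and Hsd11b1 lie inside their spans, so their start peaks do not enter the members' value. Among ligands and hormones of the axis 5 of 7 had one. Pomc, the precursor of corticotropin, had 14.8, though no peak lay within 1 kb of its listed start. Crh, the releasing hormone, had 6.36 in a peak shared with Gm42189. Avpr1b, the pituitary vasopressin receptor, and Mc2r, the adrenal corticotropin receptor, had none, with the nearest peak 11768 and 15027 bp away. Among genes of steroid handling 4 of 7 had one, led by Srd5a1, a steroid reductase whose peak is shared with Nsun2 (16.9), and H6pd, which supplies the cofactor of the Hsd11b1 enzyme (8.22). Hsd11b2, which inactivates corticosterone, had 5.05, while Abcb1a, Akr1c18 and Cyp11b1 had none at an end. Abcb1a, a drug pump of the blood-brain barrier, held a peak inside with a fold of 11.1.

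Chaperones of the receptor complex and coregulators all had an end peak, 8 of 8 and 9 of 9, beside 69.2% of all protein-coding genes. Bag1, a co-chaperone of HSP70 with a peak shared with Chmp5, had 16.5 and Hsp90aa1, the inducible HSP90, 11.5. Fkbp4, the relative of Fkbp5 that opposes its effect on the receptor, had 6.46 in a peak shared with Gm10069. Of the coregulators, the acetyltransferase Crebbp, whose product writes H3K27ac, had 14.0 and Smarca4, the ATPase of the BAF remodelling complex, 12.2. Of 18 genes known as glucocorticoid-induced, 17 had a peak at an end, with end folds from 1.86 to 11.9. Errfi1, an inhibitor of EGF receptor signalling, had 11.9 in a peak shared with 1700045H11Rik, and the metallothionein Mt1 had 10.5. Tsc22d3, which encodes the anti-inflammatory GILZ, had 7.30 and the clock gene Per1 5.60. Cdkn1a, the cell cycle inhibitor p21, had none at an end but a peak with a fold of 5.27 inside the span, within 1 kb of a listed start.

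Effectors of the mineralocorticoid receptor with the Sgk family were marked in 8 of 8, Sgk1 among them. Their end folds ran from 2.74 to 11.3. Scnn1g, a subunit of the epithelial sodium channel, had 11.3, and Sgk1 itself was next with 8.69. Of the nearest relatives of the 9 genes, 6 of 8 had a peak at an end. The receptor for vasoactive intestinal peptide Vipr2 had 10.6, in a peak shared with Gm46383. The progesterone receptor Pgr and the parathyroid hormone receptor Pth1r had none at an end, with highest folds of 6.98 and 7.22 inside. Both of these folds were at peaks within 1 kb of a listed start of the gene. Peaks at an end were thus listed in every group, with the lowest share, 4 of 7, in steroid handling. Beside 69.2% of all protein-coding genes, that share (57.1%) was lower, and those of ligands (71.4%) and relatives (75%) lay near 69.2%.

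**Figure D5:**
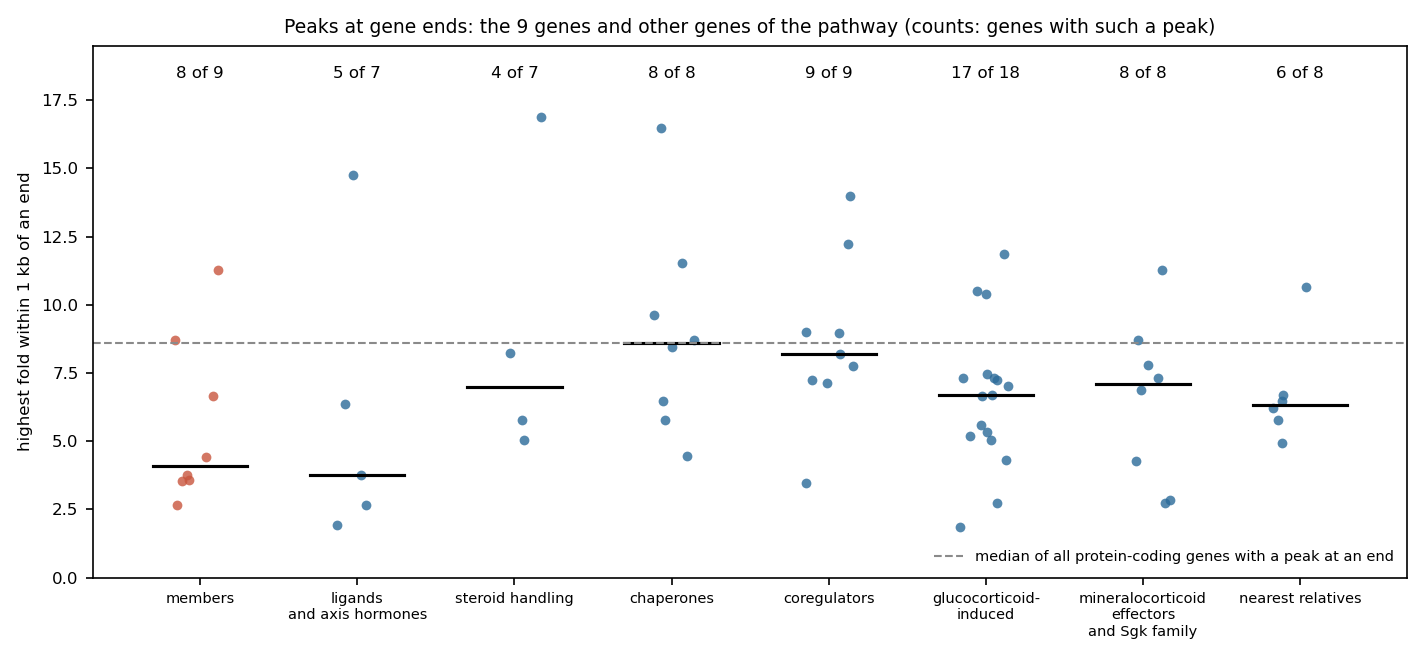
Highest fold within 1 kb of a gene end (y axis) for the 9 genes (red) and the 7 pathway lists (blue), 1 dot per gene with such a peak, with black lines at medians and counts of such genes above. The dashed line is the median over all protein-coding genes with a peak at an end, 8.60, and the 9 genes had a median of 4.08.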

How the data were processed

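H3K27ac CUT&Tag of hypothalamic nuclei was deposited as 1 narrowPeak list for the 3 bulk samples together. Per the submitters' processing notes the build was mm10, and the tools listed there, whose use is not explained, are cutadapt 4.5, UMI-tools 1.1.4, BWA 0.7.17, MACS2 with version not given and STAR 2.7.10a. Settings of the caller, its background and the rule that joined replicates were not given in the sources used here. Columns have no header and were read in narrowPeak order: a whole-number score deposited by the authors, a fold ratio deposited by the authors, and a −log10 q deposited by the authors, with a summit offset. The score was not used further, and the p column not at all. No column of per-sample values was used.

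Peaks were joined to RefSeq spans (GRCm38.p6, the assembly of mm10) with Python 3.11.15, pandas 2.3.3 and numpy 2.4.6. An overlap of 1 base counted, and the overlap code was tested on made intervals with known answers. Coordinates are 1-based. The span table has no strand or exons, so no peak was called exonic or intronic, and starts came from a RefSeq table of windows from 250 bases before to 50 after a start. Motifs were read in those windows on both strands. Percentiles count genes with a lower value, and deciles of gene length were taken over all protein-coding genes. No test was run, since the list gives no value per sample, and depth is unknown.

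For each of the 9 genes the rule named its 3 strongest peaks by fold and its widest. Other peaks, at starts and elsewhere, were named after their values were seen. In each pathway list the rule named the 2 highest end folds, up to 3 genes without an end peak, and Crh, Hsd11b2, Tsc22d3, Per1 and Fkbp4. A gene that this rule names is not reported here. The genes and lists were chosen with earlier results of these data known. Alternatives changed the flank, the end window, the overlap rule, the gene a peak goes to and the threshold on peaks.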

Additional observations from a re-analysis of the deposited data

How the results depend on the processing

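The number of the 9 genes with a peak at an end was 8, and 7 or 8 under a window of 500 bp or 2500 bp, the summit in the window, the summit nearest to the gene, or peaks above the median −log10 q. With starts only it was 7 of the 8 genes with a listed start. It was 4 when peaks below the list's upper quartile of fold were set aside. The count of 152 peaks became 263 with flanks of 50 kb, 71 above the median −log10 q and 42 without those below the upper quartile, and was 129 to 150 under the other alternatives. The median covered share of 10.2% became 10.4% without flanks, 11.1% with 50 kb, 8.72% with peaks nearest to the gene, 6.77% above the median −log10 q and 5.78% without those below the upper quartile. The median highest fold of 7.36 became 8.26 with flanks of 50 kb and was 7.36 under the other alternatives. The 54 of 62 pathway genes became 46 to 56. With starts only it was 39 of the 43 genes with a listed start. Each alternative changed which peaks were counted, and a change of flank also changed the length over which the covered share was taken. Without flanks the highest fold of Hsd11b1 was 7.88. No paired analysis was possible because the list has no columns for single samples, and for the same reason no replicate could be left out. Depth is unknown, so a gene without a peak cannot be told from one below detection.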

Other observations

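Many folds of the list fell on a regular grid. Whole multiples of 0.0722, within a tolerance of 3e-05, made up 27.6% of the peaks of the 9 genes (42 of 152) and 29.8% of the list (54755 of 183678), where even spacing alone would give 0.0831%. The genes differed: 13 of 23 peaks of Nr3c1, 14 of 35 of Nr3c2, 7 of 16 of Fkbp5 and 3 of 5 of Crhbp lay on the grid, but 0 of 13 of Crhr2, 0 of 13 of Hsd11b1, 2 of 12 of Crhr1 and 3 of 35 of Sgk1. In the windows of the 9 genes, peaks on the grid had a median fold of 3.25 and a median −log10 q of 9.76, and the others 3.21 and 13.3.

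With flanks of 50 kb the covered share of Sgk1 was 11.1%, of Nr3c1 11.6% and of Nr3c2 6.78%. The strongest peak of the widened window lay nearest to another gene for Crhr2 (Gars, fold 5.63), Hsd11b1 (A130010J15Rik, fold 12.3) and Ucn3 (Net1, fold 11.2).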
